A study of Homo sapiens with 15 samples.

Results

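The mitochondrial ribosomal protein genes were described in LNCaP, an established human prostate cancer line that grows in response to androgen, by RNA sequencing after knockdown of chromatin regulators. The members were all genes of the table named MRPL or MRPS with digits and at most 1 further letter whose mean over the 15 libraries was at least 1 RPKM, read numbers divided by the length of the gene and by the size of the library. All 77 genes that fit the name pattern passed this threshold, and 0 fell under it, among 26443 gene names with values. The lowest member, MRPS24, was at a mean of 1.79 RPKM, MRPL23 at 2.49 and MRPS36 at 4.09. Cells labelled LNCaP with a WT genotype had been infected for 4-5 days with lentivirus carrying a hairpin against PALI1 (shPALI1), against G9a (shG9a), against JARID2 (shJarid2) or against SUZ12 (shsuz12), or with the control pLKO virus. Each of the 5 groups had 3 libraries, and the labels do not say whether these came from separate cultures, so p-values measure the spread between libraries, which may be technical. The labels name no clone and no hairpin sequence, and 1 hairpin label stands for each target, so an effect of a hairpin on genes other than its target cannot be told apart from an effect of the target.

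Mitochondria carry their own ribosome, which makes the few proteins encoded in mitochondrial DNA, all of them membrane subunits of the respiratory chain and the ATP synthase. Its ribosomal RNAs are made inside the organelle, but all of its proteins are encoded in the nucleus, translated in the cytosol and imported. Many of these proteins descend from bacterial ribosomal proteins, and others have no bacterial counterpart and were added during the evolution of mitochondria. The knocked-down factors act on chromatin: SUZ12 is a core subunit and JARID2 an accessory subunit of PRC2, a histone H3 lysine 27 methyltransferase, G9a is a histone H3 lysine 9 methyltransferase, and PALI1, a product of the LCOR locus, binds PRC2. The title of the series places PALI1 between PRC2 and chromatin bound by G9a.

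Of the 77 genes, 50 encode proteins of the large subunit and 26 proteins of the small subunit. MRPS30 and MRPS18A were counted with the large subunit, where structures of the ribosome place their products despite their names. MRPS36 stands outside both, since its product is now known as a subunit of the alpha-ketoglutarate dehydrogenase complex. Among the 76 ribosomal members, 46 were counted as having a bacterial homologue and 30 as specific to mitochondria. MRPS18C was counted with the former, and MRPS18A and MRPS18B, which share its name, with the latter, so this split is uncertain for them. The genes lie on 21 chromosomes. The annotated transcripts used for length had a median of 1532 bases, against 3185.5 bases for all 12715 genes tested, and 69 of the 77 were shorter than that median.

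The SUZ12 hairpin lowered most of these genes. In shsuz12, 57 of the 77 genes fell and 1 rose against pLKO, while 32.8% of all genes tested fell and 21.1% rose. In shG9a 32 fell and 2 rose, where 24.7% and 18.4% of all genes tested did. In shPALI1 21 fell and 6 rose, beside 25.1% and 16.5% of all genes. In shJarid2 13 fell and 5 rose, beside 27.2% and 23.8%, and these counts depended on 1 library. A gene passed at a Benjamini-Hochberg adjusted p of 0.05 in limma, fitted on log2(RPKM + 1) over all genes tested. The comparisons with pLKO share its 3 libraries and are therefore not independent of each other.

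The targeted genes were at 23.8% of pLKO for C10orf12, the row that distinguishes PALI1, in shPALI1, at 25.7% for EHMT2 (G9a) in shG9a, at 18.3% for JARID2 in shJarid2 and at 12.5% for SUZ12 in shsuz12. LCOR was at 60.0% of pLKO in shPALI1. Some targets of other hairpins passed too: EHMT2 was at 71.5% of pLKO in shJarid2 and at 80.3% in shsuz12. In shsuz12 JARID2 was also at 141% and LCOR at 158%. In shPALI1 and shG9a no target of another hairpin passed. Depth lay between 10.56 and 19.36 M reads per library. Replicates correlated across genes at r of 0.986 to 0.992, except that shJarid2 replicate 3 correlated with its own group at 0.975 and 0.978. All 8 LNCaP markers were expressed, but their summed level was 778 to 886 RPKM in shPALI1, 887 to 929 in shG9a, 1500 to 1780 in shJarid2 and 1210 to 1290 in shsuz12, against 1840 to 2040 in pLKO. Of 13 markers of immune, endothelial, fibroblast, basal and neuroendocrine cells, 3 reached a mean of 1 RPKM over the 15 libraries, namely CD68, COL1A1 and SYP. The summed level of all 13 was 10.1 to 10.5 RPKM in shPALI1, 10.0 to 11.0 in shG9a, 9.64 to 12.6 in shJarid2 and 11.0 to 12.5 in shsuz12, against 7.82 to 9.63 in pLKO. Single markers differed more than the sums: SYP, a neuroendocrine marker, was at a mean of 4.88 RPKM in shsuz12, KRT14, a basal marker, at 4.02 RPKM in shJarid2 and COL3A1, a fibroblast marker, at 2.02 RPKM in shPALI1, against 0.66, 0.361 and 0.279 RPKM for these genes in pLKO. The other fibroblast markers, COL1A1 and PDGFRB, were lower in shPALI1, at 3.13 and 0.105 RPKM, against 4.52 and 0.178 RPKM in pLKO. The other neuroendocrine marker, CHGA, was near 0 in shsuz12, at 0.0508 RPKM, against 0.0121 RPKM in pLKO. CD3E was at 0 in every library, and PTPRC, KRT5 and TP63 were near 0. The part of these marker levels in the results for the ribosomal genes was not tested, and in bulk RNA fewer cells of a type and less RNA per cell cannot be told apart.

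The mRNA levels of proteins that enter the ribosome in 1 copy each, apart from the stalk protein MRPL12, were far apart. The median gene was at a mean of 30.8 RPKM over the 15 libraries, against 8.04 RPKM for all genes tested, and the medians of the subunits were close, at 31.5 RPKM for the large and 30.1 RPKM for the small subunit. MRPL41, a large subunit protein without bacterial counterpart, was highest at 195 RPKM. MRPL20, at 132 RPKM, MRPL51, at 129 RPKM, MRPL24, at 118 RPKM, and MRPS34, at 96.7 RPKM, followed. These 5 genes held 22.1% of the summed level. At the low end, 8 genes were under 10 RPKM, among them MRPS18B at 5.44 RPKM and MRPL22 at 7.79 RPKM. MRPS24 shares 23.2% of its exonic bases with the annotated readthrough gene URGCP-MRPS24, so reads of that gene and its neighbour may be split. In all, 34 members share over 5% of their exonic bases with another gene, and the library kit does not mark strand, so those reads cannot be assigned with certainty. Another 34 members, in part the same, have pseudogenes that carry their name.

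Summed over the members, the level was 3208, 2937 and 2783 RPKM in shPALI1, 2806, 2886 and 2763 in shG9a, 3055, 3240 and 4297 in shJarid2 and 2331, 2487 and 2467 in shsuz12, against 3663, 3487 and 3162 in pLKO. The 3 shsuz12 libraries were the lowest of the 15, and shJarid2 replicate 3 was the highest. As a share of all summed RPKM in a library, which ranged from 250161 to 318754, the members took 0.932%, 0.947% and 0.964% in shsuz12, against 1.25%, 1.22% and 1.19% in pLKO. The group mean was lowest in shsuz12 for 56 of the 77 genes and highest there for 0. It was highest in shJarid2 for 33 genes, in shPALI1 for 20, in shG9a for 4 and in pLKO for 20. For 45 genes the highest of all 15 values was that of shJarid2 replicate 3. These ranks were not counted over all genes tested. The summed RPKM of the whole library was itself highest in shJarid2 replicate 3, at 318754, and lowest in shsuz12 replicate 1, at 250161. The ranks can therefore reflect the scale of a library as well as its members.

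**Figure D1:**
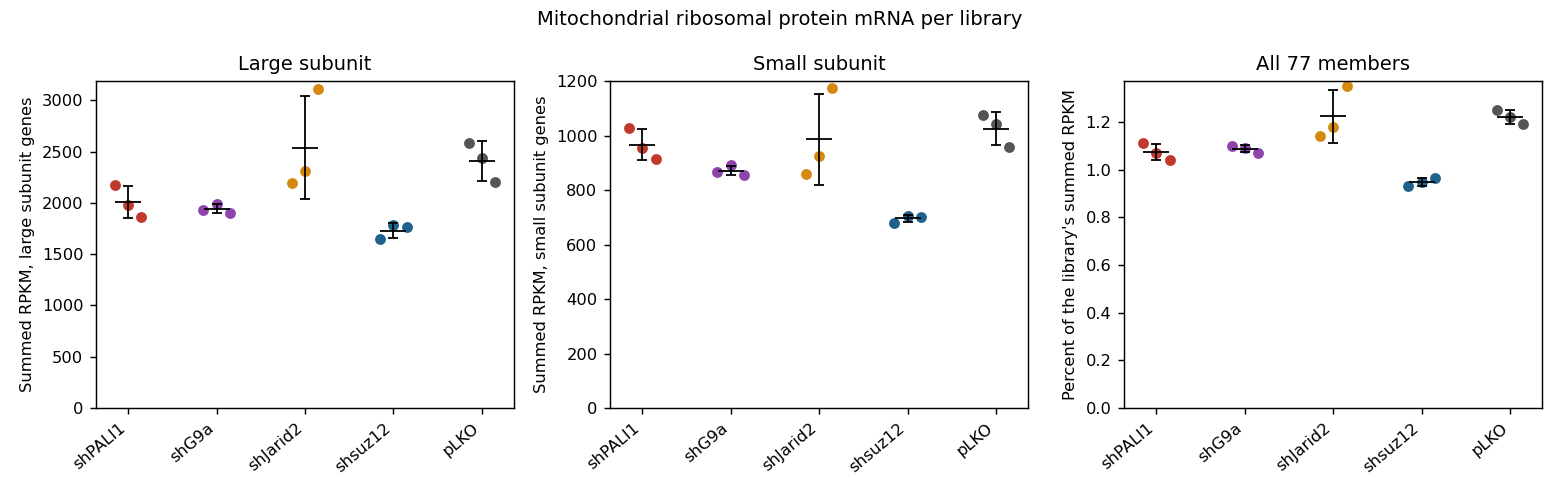
Summed RPKM of the 50 large subunit genes, of the 26 small subunit genes, and the share of all 77 members in the library's summed RPKM, with 1 point per library and the mean and SD of each group of 3 in black. The 3 shsuz12 points lie under those of every other group in each panel, and shJarid2 replicate 3 stands above its group.

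The balance between the subunits also differed between groups. The summed level of the large subunit was 2.11, 2.07 and 2.03 times that of the small subunit in shPALI1, 2.23, 2.23 and 2.22 times in shG9a, 2.55, 2.50 and 2.65 times in shJarid2 and 2.42, 2.53 and 2.51 times in shsuz12, against 2.40, 2.34 and 2.30 times in pLKO. All shPALI1 and shG9a libraries were under the pLKO libraries, and all shJarid2 and shsuz12 libraries above them. MRPL41 weighs on this ratio because of its high level. Without it the ratio was 1.98, 1.94 and 1.90 in shPALI1, 2.06, 2.06 and 2.05 in shG9a, 2.24, 2.18 and 2.27 in shJarid2 and 2.25, 2.33 and 2.31 in shsuz12, against 2.15, 2.11 and 2.10 in pLKO, and the order of those groups around pLKO was as before. These ratios are descriptions of chosen members and carry no test.

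Promoters are shown for 5 members because these genes moved in different ways: MRPS34 and MRPL50 were among those that fell most under shsuz12, MRPS10 changed in all 4 knockdowns, and MRPL42 and MRPS27 fell under shJarid2. Each window runs from 250 bases before to 50 bases after the transcription start in RefSeq on GRCh38.p14, 5′ to 3′ on the strand of the gene. Capitals mark CCGGAAG, a core of sites bound by ETS factors such as GABP, or AAGATGGCG, the core of sites bound by YY1, on either strand. The last bases of the first run are the first bases of the second, and in 0 members the runs overlapped. Both factors are known regulators of nuclear genes for mitochondrial proteins.
MRPS34, chr16:1773085-1773384, minus strand: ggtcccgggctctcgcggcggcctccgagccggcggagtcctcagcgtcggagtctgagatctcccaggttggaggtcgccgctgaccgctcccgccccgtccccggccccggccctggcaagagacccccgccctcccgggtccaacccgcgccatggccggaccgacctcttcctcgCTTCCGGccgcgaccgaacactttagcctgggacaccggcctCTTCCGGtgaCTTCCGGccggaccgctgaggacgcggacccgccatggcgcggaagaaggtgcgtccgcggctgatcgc
MRPL50, chr9:101398569-101398868, minus strand: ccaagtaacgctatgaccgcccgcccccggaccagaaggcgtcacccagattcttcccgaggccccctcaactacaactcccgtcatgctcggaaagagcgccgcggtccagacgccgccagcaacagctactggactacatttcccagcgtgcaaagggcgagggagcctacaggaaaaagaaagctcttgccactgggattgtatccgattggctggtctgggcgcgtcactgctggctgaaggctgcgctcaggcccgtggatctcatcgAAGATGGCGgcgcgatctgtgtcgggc
MRPS10, chr6:42217812-42218111, minus strand: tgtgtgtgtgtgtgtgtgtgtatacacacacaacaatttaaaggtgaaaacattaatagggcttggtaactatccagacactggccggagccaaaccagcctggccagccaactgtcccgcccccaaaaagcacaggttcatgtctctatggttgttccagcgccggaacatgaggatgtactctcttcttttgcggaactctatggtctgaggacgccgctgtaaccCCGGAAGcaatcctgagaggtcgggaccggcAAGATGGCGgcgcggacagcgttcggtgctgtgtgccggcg
MRPL42, chr12:93467264-93467563, plus strand: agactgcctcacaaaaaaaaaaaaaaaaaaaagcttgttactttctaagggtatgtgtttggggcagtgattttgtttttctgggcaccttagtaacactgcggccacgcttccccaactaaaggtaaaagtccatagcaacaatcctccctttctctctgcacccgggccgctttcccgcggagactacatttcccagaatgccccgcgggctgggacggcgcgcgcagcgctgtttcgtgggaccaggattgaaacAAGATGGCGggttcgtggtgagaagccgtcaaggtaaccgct
MRPS27, chr5:72320191-72320490, minus strand: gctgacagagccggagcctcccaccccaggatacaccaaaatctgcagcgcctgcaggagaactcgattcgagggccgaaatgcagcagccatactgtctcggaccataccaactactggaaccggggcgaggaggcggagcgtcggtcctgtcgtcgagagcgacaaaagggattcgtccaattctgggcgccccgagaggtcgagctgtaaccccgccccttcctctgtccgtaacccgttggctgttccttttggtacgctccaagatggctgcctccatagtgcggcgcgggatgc

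RefSeq windows were matched for 68 of the 77 members. The ETS letters stood in at least 1 window of 29 of these 68 genes (42.6%), against 23.15% of the 9179 tested genes with a window and 12.16% of all 27305 genes with one. The YY1 letters stood in windows of 13 genes (19.1%), against 5.01% of tested and 2.14% of all genes. A pair of GCGC with 2 free bases between them, the outer part of the NRF1 core, stood in windows of 10 genes (14.7%), against 19.34% of tested genes and 9.98% of all genes. MRPS34 held the ETS letters 3 times, MRPS10 held both the ETS and the YY1 letters, MRPL50 and MRPL42 held the YY1 letters close to the start, and the window of MRPS27 held neither. Under shsuz12, 10 of 13 genes with the YY1 letters and 40 of 55 without them fell, as did 22 of 29 with the ETS letters and 28 of 39 without. A match is a description of the sequence and not a measured binding site.

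In shsuz12 the median change of the members was -0.45 on the log2(RPKM + 1) scale, against -0.08 over all genes tested. The change was negative for 76 of the 77 genes. The 57 that fell are 74.0% of the members, and in 63 the 3 shsuz12 libraries all lay under the 3 pLKO libraries, as they did for 38.0% of all genes tested. Both subunits took part: 35 of 50 large subunit genes and 21 of 26 small subunit genes fell, as did MRPS36. Among genes with a bacterial homologue 33 of 46 fell, and among those specific to mitochondria 23 of 30. Of genes with transcripts up to the members' median length 29 of 39 fell, and of those with longer ones 28 of 38. The same split gave 11 and 10 falling genes in shPALI1, 16 and 16 in shG9a and 3 and 10 in shJarid2. Spearman correlations of the members' change with GC content were -0.42 in shPALI1, -0.44 in shG9a, 0.11 in shJarid2 and -0.22 in shsuz12. Over all genes with known GC content they were -0.16, 0.01, 0.07 and 0.09. Among genes sharing over 5% of their exonic bases with a neighbour 28 of 34 fell, and among the others 29 of 43. Leaving out any 1 library left between 50 and 58 falling genes, beside 28.6% to 31.7% of all genes. Rescaling to a common sum (TPM) moved the median of all genes from -0.08 to 0.04, and the members then stood at -0.33. With TPM 50 members fell, beside 23.8% of all genes. The distance to all genes was -0.37 on both scales. The distance was -0.36 with median ratio scaling and smaller in size under both remaining rescalings. Quantile normalization gave a median of -0.30 for the members, against -0.01 over all genes, with 45 falling, beside 28.0% of all genes. The correction for transcript length and GC content gave -0.28 with 49 falling, beside 31.5% of all genes, a distance of -0.28.

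**Figure D2:**
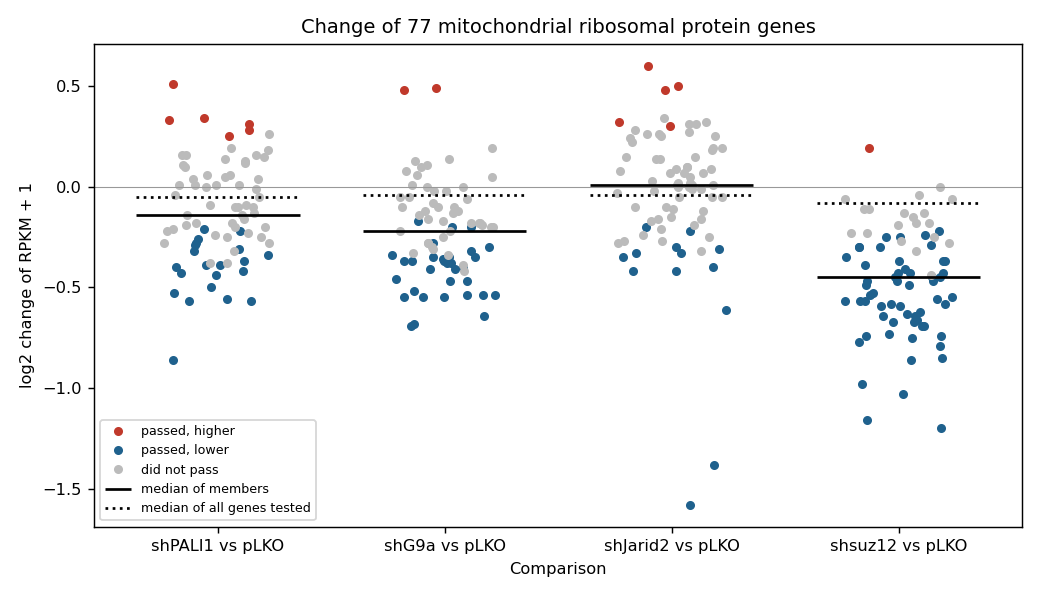
Change of each of the 77 genes on the log2(RPKM + 1) scale in the 4 comparisons with pLKO, coloured by whether it passed, with the median of the members (solid line) and of all genes tested (dotted line). The members lie lowest in shsuz12, at a median of -0.45 against -0.08, and MRPS27 and MRPL42 stand apart in shJarid2.

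MRPS34, a small subunit protein specific to mitochondria whose loss causes a form of Leigh syndrome, had the largest fall on the log2(RPKM + 1) scale. As a ratio of mean RPKM, the lower-expressed MRPS36 and MRPL45 were further down, at 37.8% and 41.1% of pLKO, than MRPS34, at 42.9%. Its gene, on the minus strand of chromosome 16 (GRCh38, 1771890 to 1773155), shares no exonic base with another annotated gene. It was at 52.8, 54.2 and 56.4 RPKM in shsuz12, against 138, 126 and 118 RPKM in pLKO. The groups lay far apart, with a log2 change of -1.20 ± 0.11 (SE, adjusted p = 5e-07). MRPS34 was also lower in shPALI1, at 81.3, 89.4 and 84.4 RPKM, and in shG9a, at 83.4, 88.0 and 89.6 RPKM, and both falls passed. In shJarid2 it was at 110, 122 and 158 RPKM and overlapped pLKO.

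MRPL45, which sits at the exit of the peptide tunnel and holds the ribosome to the inner membrane, came next on the log2(RPKM + 1) scale. Its gene is on the plus strand of chromosome 17 (38297023 to 38323218). Levels were 6.56, 5.55 and 5.82 RPKM in shsuz12, against 14.9, 14.5 and 14.1 RPKM in pLKO, without overlap (log2 change -1.16 ± 0.10, adjusted p = 4e-07). In shPALI1 the same gene was above pLKO, at 19.5, 17.3 and 16.9 RPKM, a rise that passed at an adjusted p of 0.036 but not after leaving out any of pLKO replicates 1, 2 and 3 or of shPALI1 replicates 1 and 2. MRPL50, a large subunit protein specific to mitochondria, was at 15.8, 16.4 and 14.6 RPKM in shsuz12, against 29.5, 34.1 and 31.5 RPKM in pLKO, which were well separated (log2 change -0.98).

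Proteins with bacterial homologues fell as well. MRPL10 forms the base of the stalk onto which MRPL12 is attached, and the stalk recruits translation factors. MRPL10 was at 12.1, 11.6 and 12.3 RPKM in shsuz12, against 25.3, 22.6 and 20.2 RPKM in pLKO (log2 change -0.86), and MRPL12 fell by 0.73. MRPL12 shares 68.2% of its exonic bases with another annotated gene, so its level is less certain. MRPS12, which lines the decoding centre, was at 21.0, 23.3 and 24.9 RPKM in shsuz12, against 49.8, 39.1 and 38.8 RPKM in pLKO (log2 change -0.85), and it shares 16.3% of its exonic bases with SARS2 on the opposite strand. MRPS36, the member outside the ribosome, was at 1.59, 1.98 and 1.59 RPKM in shsuz12, against 4.57, 4.96 and 4.13 RPKM in pLKO (log2 change -1.03, adjusted p = 2e-06). It has 5 named pseudogenes.

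Some genes showed little difference under shsuz12. MRPL13 was at 20.9, 23.7 and 23.3 RPKM in shsuz12, against 21.1, 25.5 and 21.6 RPKM in pLKO. MRPS27, MRPL42 and MRPL32 had log2 changes of -0.04, -0.06 and -0.06 and overlapped pLKO. MRPL44, a large subunit protein with a fold like ribonuclease III, was the 1 gene that rose, at 20.7, 21.0 and 21.6 RPKM in shsuz12, against 19.6, 18.7 and 16.7 RPKM in pLKO. That rise of 0.19 was small and did not pass when pLKO replicate 2 or 3 or any 1 of the 3 shsuz12 libraries was left out.

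**Figure D3:**
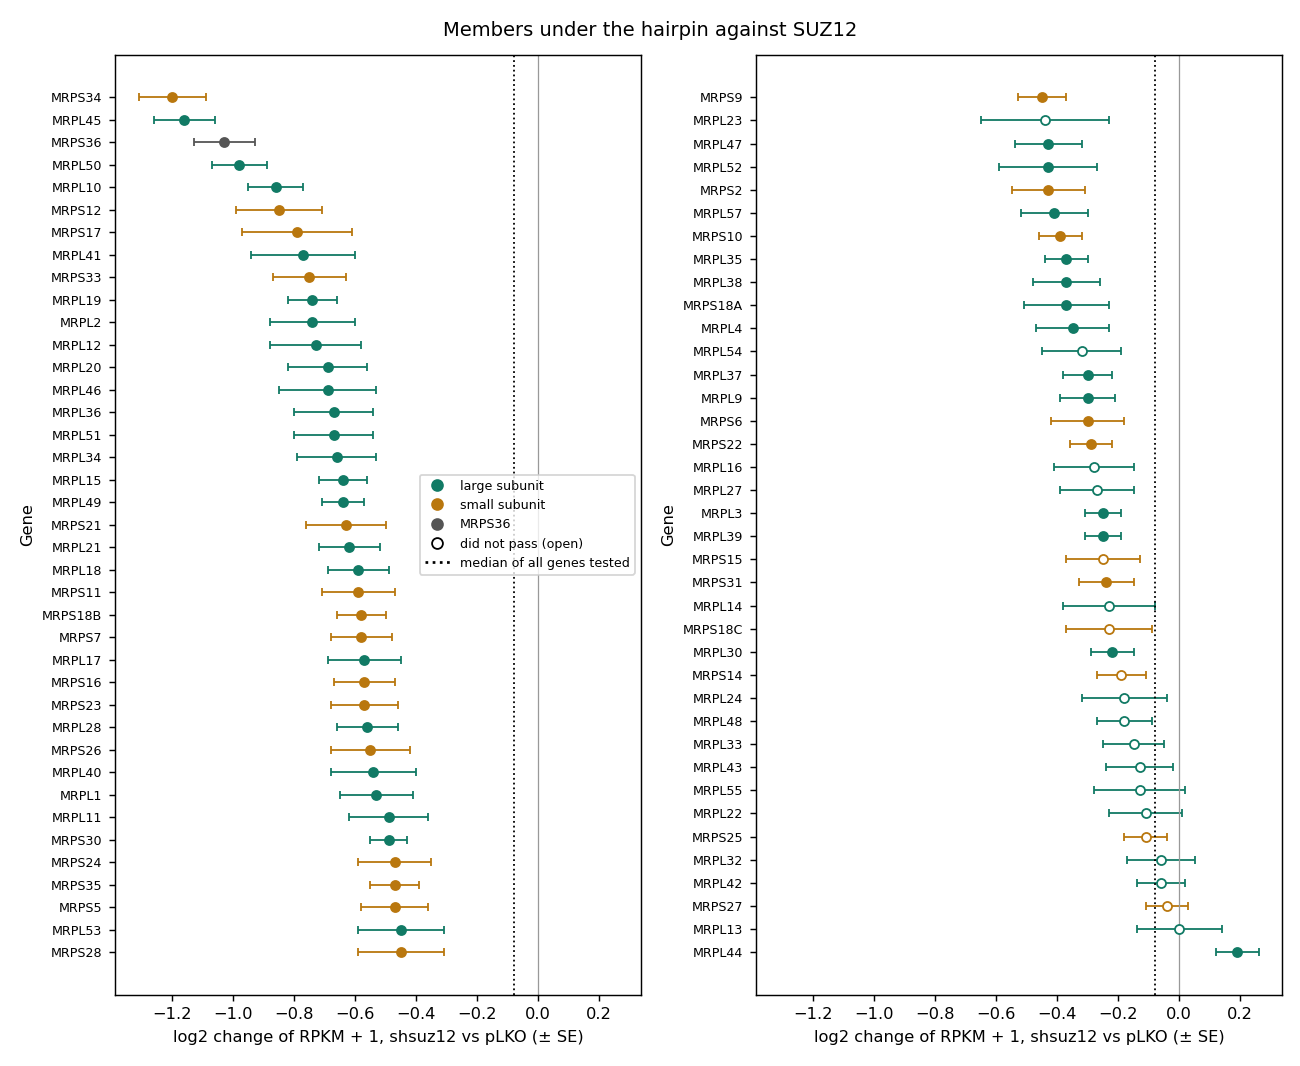
Log2 change of RPKM + 1 in shsuz12 against pLKO for every member, ordered by size, with its SE from the fit; filled points passed, open points did not, and the dotted line is the median of all genes tested, -0.08. All points but that of MRPL44 lie at or left of 0, and genes of both subunits are spread over the whole order.

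In shG9a the members had a median log2 change of -0.22, against -0.04 over all genes tested. The 32 genes that fell make 41.6% of the members, beside 24.7% of all genes, and the 2 that rose stand beside 18.4%. Of the large subunit 21 of 50 genes fell, and of the small subunit 11 of 26. Without pLKO replicate 1 the number of falling genes was 19, beside 20.8% of all genes, so the excess over the background depended on that library. The medians in that refit were -0.20 for the members and -0.03 for all genes. With any other single library left out the number of falling genes was at most 35, beside 20.3% to 23.9% of all genes. The rising genes were 4 without pLKO replicate 2, beside 16.2% of all genes. With TPM the median of all genes moved to 0.06 and that of the members to -0.10. There 28 members fell and 6 rose, beside 17.9% and 24.6% of all genes. With quantile normalization the members stood at -0.14.

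MRPL53, specific to mitochondria, had the largest fall in shG9a on the log2(RPKM + 1) scale, at 25.9, 26.4 and 26.0 RPKM, against 47.9, 40.2 and 40.1 RPKM in pLKO (log2 change -0.69, adjusted p = 0.0014). It shares 45.2% of its exonic bases with CCDC142 on the same strand. MRPL35, which has a bacterial homologue and shares no exonic base with another gene, was at 7.54, 7.77 and 7.84 RPKM in shG9a, against 12.3, 14.1 and 12.7 RPKM in pLKO (log2 change -0.68, adjusted p = 3.1e-06). As a ratio of mean RPKM, MRPL35 and MRPS24 were further down, at 59.2% and 59.5% of pLKO, than MRPL53, at 61.1%. The shG9a libraries of MRPL53 and MRPL35 were tightly grouped and far under pLKO. MRPL41 fell by 0.64, and MRPL12, MRPL17 and MRPL57 by 0.55 each. MRPL44 and MRPS35 rose: MRPL44 was at 26.6, 26.6 and 25.5 RPKM in shG9a, against 19.6, 18.7 and 16.7 RPKM in pLKO (log2 change 0.49, adjusted p = 0.00011).

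In shPALI1 the median was -0.14, against -0.05 over all genes tested. It was -0.21 without shPALI1 replicate 1, -0.09 without shPALI1 replicate 3 or with the correction for transcript length and GC content, and -0.04 with quantile normalization, which put all genes at 0. The 21 genes that fell are 27.3% of the members, beside 25.1% of all genes tested, so that share was near the background. The 6 that rose stand beside 16.5% of all genes. Falls were counted for 16 of 50 large subunit genes and 5 of 26 small subunit genes, and 3 genes of each subunit rose. The number of falling genes depended on single libraries. It was 10 without pLKO replicate 1 and 13 without pLKO replicate 2, beside 20.4% and 21.0% of all genes. Without shPALI1 replicate 2 or 3 it was 11, beside 21.2% and 21.0%. Quantile normalization turned the split of 6 rising and 21 falling genes into 15 and 18, beside 21.9% and 22.7% of all genes.

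MRPL41 was at 135, 122 and 121 RPKM in shPALI1, against 271, 233 and 191 RPKM in pLKO (log2 change -0.86 ± 0.17, adjusted p = 0.00082). Its gene is on the plus strand of chromosome 9 (137551199 to 137552555). All shPALI1 values were under all pLKO values, although the pLKO values themselves were spread widely. MRPS34 and MRPS7 both fell by 0.57, and MRPL19, MRPL20 and MRPL32 fell by 0.56, 0.53 and 0.50. MRPL19, which has a bacterial homologue, was at 7.90, 7.63 and 7.51 RPKM in shPALI1, against 11.2, 12.8 and 11.4 RPKM in pLKO. Among the genes that rose, MRPS35 changed by 0.51, MRPL30 by 0.34, MRPS27 by 0.33, MRPL1 by 0.31, MRPL45 by 0.28 and MRPS10 by 0.25. MRPS27, a small subunit protein with pentatricopeptide repeats, was at 62.5, 60.3 and 62.8 RPKM in shPALI1, against 49.0, 50.3 and 47.7 RPKM in pLKO. The rise of MRPL1 did not pass when pLKO replicate 1 or 3 or shPALI1 replicate 1 or 2 was left out.

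In shJarid2 the counts rested on replicate 3, in which the members summed to 4297 RPKM while its fellow libraries gave 3055 and 3240. The median SD between the shJarid2 libraries was 0.241 on the log2 scale for the members and 0.165 for all genes tested, and in the other groups it was 0.062 to 0.112 for the members. With all libraries the median change was 0.01, against -0.04 over all genes tested, and the 13 falling and 5 rising genes stand beside 27.2% and 23.8% of all genes. Without replicate 3 the median was -0.13, against -0.05 over all genes, and 30 genes fell and 2 rose, beside 29.7% and 25.2%. Without replicate 1 the median was 0.08, against -0.03 over all genes, and 16 genes rose and 10 fell, beside 23.3% and 26.2%. Without pLKO replicate 3 the number of rising genes was 2, beside 20.1% of all genes. The split also moved with the scaling, to 18 rising and 11 falling with median ratio scaling, to 8 and 27 with quantile normalization and to 13 and 22 with TPM. No direction is therefore given for the family as a whole in shJarid2.

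A pair of genes in shJarid2 did not share in this. MRPS27 was at 15.6, 14.5 and 17.2 RPKM in shJarid2, against 49.0, 50.3 and 47.7 RPKM in pLKO (log2 change -1.58 ± 0.07, adjusted p = 7.5e-10). MRPL42, a large subunit protein specific to mitochondria, was at 10.9, 10.7 and 9.99 RPKM in shJarid2, against 25.6, 32.4 and 29.1 RPKM in pLKO (log2 change -1.38 ± 0.08, adjusted p = 6.7e-09). In both genes the 3 shJarid2 values were close together and under all other libraries of the study. Without shJarid2 replicate 3 the log2 changes were -1.64 and -1.34. MRPS27, on the minus strand of chromosome 5 (72219409 to 72320646), shares 2.9% of its exonic bases with PTCD2, and MRPL42, on the plus strand of chromosome 12 (93467488 to 93516213), shares 1.7% with a 7SL pseudogene. MRPL42 also has 4 named pseudogenes.

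The next largest fall in shJarid2 was that of MRPS25, a small subunit protein specific to mitochondria, at 10.5, 11.0 and 12.3 RPKM, against 17.9, 17.3 and 17.8 RPKM in pLKO (log2 change -0.61, adjusted p = 5.7e-06), without overlap. MRPS25 shares 22.2% of its exonic bases with NR2C2 on the opposite strand. MRPL18 and MRPL27 each fell by 0.42 and MRPS10 by 0.35. Among the rises, MRPS35 was at 75.2, 86.8 and 86.5 RPKM in shJarid2, against 50.2, 57.6 and 55.2 RPKM in pLKO (log2 change 0.60, adjusted p = 1.7e-05). MRPL44 rose by 0.48 and MRPL32 by 0.32, and the rise of MRPL32 did not pass without shJarid2 replicate 3 or without pLKO replicate 1 or 3.

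**Figure D4:**
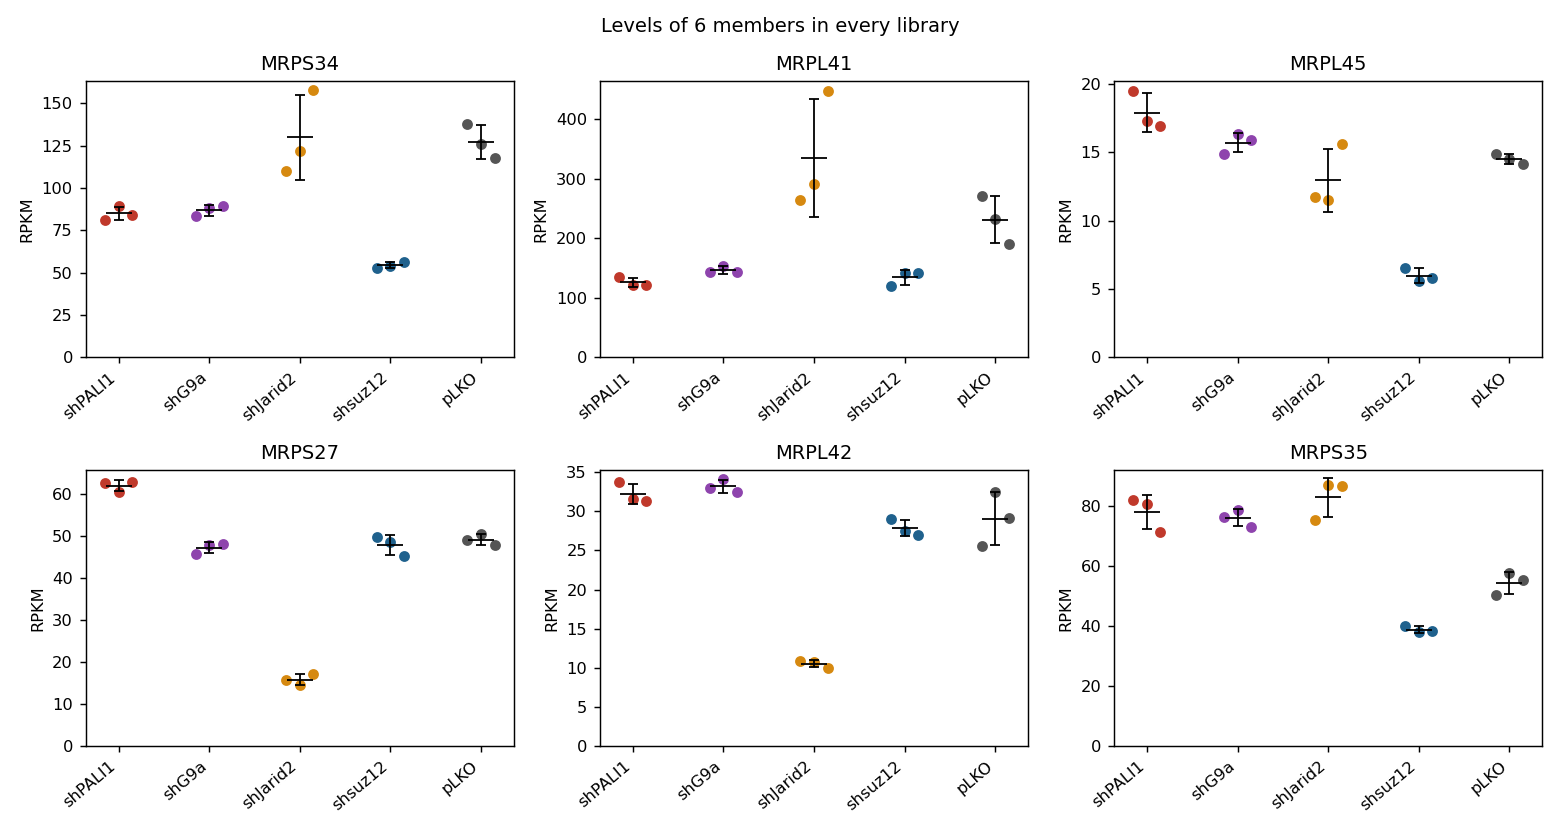
RPKM of 6 members in every library by group, with the mean and SD of each group of 3 in black. MRPS34 and MRPL45 are lowest in shsuz12, MRPS27 and MRPL42 in shJarid2, MRPL41 is under pLKO in 3 groups, and MRPS35 is above pLKO in 3 groups and under it in shsuz12.

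Set side by side, 5 genes passed in all 4 comparisons with pLKO. How many of all genes tested passed in all 4, or in none, was not counted. The numbers of such members are therefore not read as a trait of the family. MRPL35 and MRPS7 fell in each, MRPL35 by 0.39, 0.68, 0.20 and 0.37 and MRPS7 by 0.57, 0.52, 0.33 and 0.58 in shPALI1, shG9a, shJarid2 and shsuz12. MRPS35, specific to mitochondria, rose by 0.51, 0.48 and 0.60 in shPALI1, shG9a and shJarid2 and fell by 0.47 in shsuz12, where it was at 40.1, 38.1 and 38.2 RPKM, against 50.2, 57.6 and 55.2 RPKM in pLKO. MRPS10 rose by 0.25 in shPALI1 and fell by 0.20 in shG9a, 0.35 in shJarid2 and 0.39 in shsuz12. MRPL41 fell in shPALI1, shG9a and shsuz12, and in shJarid2 it was at 264, 292 and 448 RPKM, a rise of 0.50 that passed although replicate 1 lay within the pLKO range, but did not pass without shJarid2 replicate 3 (0.27) or pLKO replicate 3 (0.37). The calls of MRPL35 and MRPS7 in shJarid2 and of MRPS10 in shG9a rested on single libraries too. That of MRPL35 was lost without shJarid2 replicate 2 (log2 change -0.18) or pLKO replicate 2 (-0.14), and that of MRPS7 without shJarid2 replicate 1 (-0.23). That of MRPS10 was lost without shG9a replicate 1 or 3 or pLKO replicate 2 or 3, with log2 changes of -0.19 to -0.17, and under the other scalings (-0.09 with the correction for transcript length and GC content). The calls of MRPS35 held in each of these refits. At the other end, 9 genes passed in none of the 4, namely MRPL13, MRPL16, MRPL22, MRPL23, MRPL24, MRPL48, MRPL55, MRPS15 and MRPS18C.

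Direct contrasts between knockdowns compare 2 hairpins with each other, and pLKO entered them only through the estimate of the spread that all 15 libraries share. Between shPALI1 and shG9a, 17 genes were higher and 3 lower in shPALI1, beside 24.1% and 24.1% of all genes tested. MRPL30, which has a bacterial homologue, was at 26.6, 26.4 and 25.4 RPKM in shPALI1, against 16.2, 16.5 and 14.5 RPKM in shG9a (log2 change 0.70, adjusted p = 2.1e-06). MRPL52, MRPS21 and MRPS2 were higher in shPALI1 by 0.59, 0.54 and 0.53, and MRPL32, MRPL19 and MRPL44 had changes of -0.39, -0.38 and -0.32. Without shPALI1 replicate 3 the difference of MRPL32 did not pass.

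Between shPALI1 and shsuz12, 43 genes were higher and 3 lower in shPALI1, beside 30.9% and 25.0% of all genes tested, with a median of 0.30 (0.19 with the correction for transcript length and GC content). Of the small subunit 19 of 26 genes were higher, and of the large subunit 23 of 50. MRPL45 differed most on the log2(RPKM + 1) scale, at 19.5, 17.3 and 16.9 RPKM in shPALI1, against 6.56, 5.55 and 5.82 RPKM in shsuz12 (log2 change 1.44, adjusted p = 3.6e-08). MRPL50, MRPS17 and MRPS36 were higher by 1.09, 1.05 and 0.99. MRPL32, MRPL43 and MRPL33 had changes of -0.44, -0.31 and -0.29, and those of MRPL43 and MRPL33 did not pass without shPALI1 replicate 3 or shsuz12 replicate 2, nor that of MRPL33 without shPALI1 replicate 2, so that 1 gene was lower without either of the first 2 libraries.

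Between shJarid2 and shsuz12, 61 genes were higher and 3 lower in shJarid2, beside 33.8% and 25.2% of all genes tested. This contrast shares the shsuz12 libraries with the one before, and it drew its highest values from shJarid2 replicate 3. Leaving out any 1 library left 49 to 61 genes higher, beside 30.3% to 34.1% of all genes. MRPS36 was at 5.11, 5.37 and 6.50 RPKM in shJarid2, against 1.59, 1.98 and 1.59 RPKM in shsuz12 (log2 change 1.29, adjusted p = 1.6e-07). MRPL41, MRPS34 and MRPS35 were higher by 1.27, 1.23 and 1.07. The 3 lower genes were MRPS27, MRPL42 and MRPS25, with changes of -1.54, -1.32 and -0.50.

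Other genes of mitochondrial translation were counted in the same way, to be read beside the shares of all genes tested that fell (32.8% in shsuz12, 24.7% in shG9a, 25.1% in shPALI1 and 27.2% in shJarid2). Of 6 tested genes for mitochondrial ribosomal proteins with other names, 5 fell in shsuz12, among them ICT1, the ribosome's built-in peptide release factor, by 0.68, AURKAIP1 by 0.64 and PTCD3 by 0.20. In shPALI1 1 of them fell, DAP3, by 0.62, and PTCD3 rose by 0.15, while in shG9a PTCD3 fell by 0.32. In shJarid2 DAP3 and ICT1 rose by 0.31 each.

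Of 24 assembly factors, 14 fell and 1 rose in shsuz12, 11 fell in shG9a, 7 fell in shPALI1, and 8 fell and 1 rose in shJarid2. The falls were 58.3% of the list in shsuz12 and 45.8% in shG9a, and at 29.2% in shPALI1 and 33.3% in shJarid2 they were near the shares of all genes. FTSJ2, which methylates the large ribosomal RNA, fell by 0.90 in shsuz12 and 0.63 in shG9a, and DDX28, a helicase of large subunit assembly, fell by 0.68 in shsuz12 and 0.62 in shG9a. MTERF4, which brings an RNA methyltransferase to the large subunit, fell by 0.62 in shPALI1, and NGRN fell by 0.58 in shJarid2. Of 16 translation factors, 7 fell and 1 rose in shsuz12, 4 fell and 2 rose in shG9a, 4 fell and 1 rose in shPALI1, and 3 fell and 2 rose in shJarid2. Their falls were 43.8% in shsuz12, and 25.0%, 25.0% and 18.8% in shG9a, shPALI1 and shJarid2, near or under the shares of all genes. LRPPRC and SLIRP, which together stabilise mitochondrial mRNAs, fell by 0.92 and 0.79 in shsuz12. GFM1, the elongation factor G of mitochondria, fell by 0.65 in shsuz12 and 0.81 in shPALI1, and GFM2, the recycling factor, rose by 0.59 in shJarid2.

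Of 17 mitochondrial aminoacyl-tRNA synthetases, 5 fell in shsuz12, 5 in shG9a, 6 in shPALI1 and 5 in shJarid2. These are 29.4% of the list in shsuz12, under the share of all genes, 29.4% in shG9a and shJarid2, near it, and 35.3% in shPALI1. MARS2 fell by 1.06 in shsuz12, 0.73 in shPALI1 and 0.72 in shJarid2, and HARS2 rose by 0.68 in shPALI1, the only rise of the list in any comparison with pLKO. Of 9 tested genes for transcription and replication of mitochondrial DNA, 4 fell and 1 rose in shsuz12, 2 fell and 1 rose in shG9a, 3 fell and 1 rose in shPALI1 and 4 fell in shJarid2. In shsuz12 TFB2M fell by 1.01, TFAM by 0.90 and the helicase gene C10orf2 by 0.86. Among 10 tested regulators of nuclear genes for mitochondria, 8 fell in shsuz12, 3 in shG9a, 2 in shPALI1 and 4 in shJarid2, while 2 rose in shPALI1 and 1 in shJarid2. MYC fell by 0.82 in shsuz12 and 1.00 in shG9a, YY1 by 0.58 and 0.42 in the same groups, and PPARGC1B, a coactivator of mitochondrial genes, by 0.88 in shsuz12, 0.69 in shG9a, 0.54 in shPALI1 and 0.72 in shJarid2.

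With all 15 libraries the respiratory chain gave shares of falling genes nearer to those of the members than the cytosolic ribosome did. Of the members, 27.3% fell in shPALI1, 41.6% in shG9a, 16.9% in shJarid2 and 74.0% in shsuz12. Of 88 cytosolic ribosomal protein genes, taken by name pattern, 33 rose and 2 fell in shPALI1, 3 rose and 24 fell in shG9a, 1 rose and 41 fell in shJarid2, and 2 rose and 6 fell in shsuz12. The rises in shPALI1 were 37.5% of the list, beside 16.5% of all genes, and the falls were 27.3% in shG9a, near the 24.7% of all genes, 46.6% in shJarid2, beside 27.2%, and 6.82% in shsuz12, beside 32.8%. The median log2 changes of the list were 0.30, -0.24, -0.33 and -0.05, where the mitochondrial ribosomal genes had -0.14, -0.22, 0.01 and -0.45. Of 76 nuclear genes for the respiratory chain, 23 fell and 1 rose in shPALI1, 31 fell and 1 rose in shG9a, 10 fell and 7 rose in shJarid2, and 42 fell and 1 rose in shsuz12, with medians of -0.27, -0.25, -0.01 and -0.36. The falls were 30.3%, 40.8%, 13.2% and 55.3% of the list in these groups, beside 25.1%, 24.7%, 27.2% and 32.8% of all genes. The shJarid2 values depended on replicate 3, without which 30 members fell in place of 13. In shJarid2 the respiratory chain genes summed to 7455, 7782 and 10978 RPKM and the cytosolic ribosomal genes to 25822, 26281 and 38584 RPKM. Calls without that library were counted for the members but not for the other lists. The difference between the families was not tested.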

How the data were processed

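RNA sequencing covered 15 libraries of LNCaP cells in 5 groups of 3. The authors deposited 1 table of RPKM values for all libraries. STAR and the hg38 build are named in the submitters' processing notes, and the version of STAR, the counting tool and its gene models are not stated there. Column sums differed, so the values had no common sum. Depth was worked out from steps of 1 read in short RNA genes: 92.8% to 94.7% of their values under 50 reads were within 0.05 of a whole read.

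Genes with at least 1 RPKM in at least 3 libraries (12715) were fitted as log2(RPKM + 1) with limma 3.58.1 in R 4.3.3, a two-sided moderated test with a mean-variance trend in 1 model over all 15 libraries. On this scale fold changes of low genes are understated. Adjusted p-values are Benjamini-Hochberg values over all genes tested within a comparison, with a threshold of 0.05, and SEs are those of the fit. All 77 members passed the filter. On simulated data for shsuz12 against pLKO (12715 genes), the test called 72 of 100 genes with a planted change of 1.5-fold and 94 of 100 with one of 2-fold. These changes were planted on the log2(RPKM + 1) scale, and the other 12515 genes were left unchanged. In the real comparison 32.8% of all genes fell and 21.1% rose, so these rates of recovery need not hold there. Members, comparison lists and tests were chosen with earlier results of these data known. Named in each comparison with pLKO are the 6 largest rises and falls that passed without overlap between groups, 4 each way in contrasts of knockdowns, the 5 highest and lowest genes, genes that passed in all 4 comparisons, and the 3 smallest p-values of each list. Other genes named, such as MRPL13, were picked after their values were seen.

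Positions and overlaps come from GENCODE v29 (GRCh38), promoters from RefSeq (GRCh38.p14). The alternatives tried were a pseudocount of 0.1 or 0.5, no filter, a mean of at least 3 RPKM, median ratio scaling, quantile normalization, TPM, a correction for transcript length and GC content (known for 94.4% of tested genes), the replicate number as a block, a fit of the 6 libraries alone, and leaving out each library.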

Additional observations from a re-analysis of the deposited data

How the results depend on the processing

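The falls in shsuz12 numbered 45 to 63 over all alternatives. They were 45 under quantile normalization and 63 in the 6 libraries alone, beside 28.0% and 33.6% of all genes. With no filter, 3 genes rose in shJarid2, beside 14.4% of all genes. With median ratio scaling 18 did, beside 27.6%. Quantile normalization gave 15 rising genes in shPALI1, 4 in shG9a, 8 in shJarid2 and 27 falling in shJarid2, 5 lower in shPALI1 than in shG9a, and 35 higher in shJarid2 than in shsuz12. TPM gave 10, 6 and 13 rising genes in shPALI1, shG9a and shJarid2, 22 falling in shJarid2, and 9 and 5 lower in shPALI1 than in shG9a and shsuz12. The correction for length and GC content gave 11, 8, 19 and 3 rising genes in shPALI1, shG9a, shJarid2 and shsuz12, 22 falling in shJarid2, 12 and 9 lower in shPALI1 than in shG9a and shsuz12, and 5 lower in shJarid2 than in shsuz12. All genes had 25.0%, 26.3%, 29.2%, 29.5%, 30.4%, 28.1%, 29.4% and 31.8% in that order. In the 6 libraries alone, 2 genes rose and 7 fell in shJarid2, 0 rose in shsuz12, and 6 were lower in shPALI1 than in shG9a. The causes were not tested.

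Leaving out 1 library gave 4 to 7 rising and 10 to 23 falling genes in shPALI1, 2 to 4 and 19 to 35 in shG9a, 2 to 16 and 10 to 30 in shJarid2, and 0 to 1 and 50 to 58 in shsuz12. Of all genes, 20.4% to 24.2% fell in shPALI1 and 20.3% to 23.9% in shG9a over these refits. In shJarid2 24.2% to 29.7% of all genes fell, and in shsuz12 28.6% to 31.7%. Between shPALI1 and shG9a 13 to 18 members were higher and 2 to 3 lower, beside 20.3% to 21.7% and 21.0% to 22.0% of all genes. Between shPALI1 and shsuz12 the members were 34 to 43 and 1 to 3, beside 26.9% to 28.4% and 22.2% to 23.2%. Between shJarid2 and shsuz12 they were 49 to 61 and 3 to 4, beside 30.3% to 34.1% and 22.8% to 26.1%. The rising genes in shG9a were 4 without pLKO replicate 2. Of the 68 changes of named members, 12 lost their call in at least 1 of the alternatives, and over 1088 refits 48 lost the call and 0 changed sign. These changes were chosen because they had passed in the main fit of the same libraries. That they mostly kept sign and call was in part set by this choice.

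Replicates share only a number: deviations of same-numbered libraries correlated at -0.271 to 0.301 over 30 pairs, and 7 pairs were over 0.1. With the replicate block 0 genes rose and 55 fell in shsuz12, beside 20.6% and 32.1% of all genes. In shG9a 26 fell, in shPALI1 16 and in shJarid2 13, beside 23.8%, 24.2% and 26.8%. Among the 15 libraries, 6 correlated better on average with their own number than with others. Precision is limited by 3 libraries per group, and for MRPS24 and MRPL23 by few reads.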
